A study of Mus musculus with 7 samples.

Results

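Glucocorticoid hormones act through the glucocorticoid receptor, a transcription factor that is held in the cytoplasm by heat shock proteins, moves to the nucleus when it binds its hormone, and activates genes at DNA sites called glucocorticoid response elements. In the intestine the hormone comes from the adrenal gland and from local synthesis in the epithelium, and a pair of 11-beta-hydroxysteroid dehydrogenases converts it between its active and inactive forms. Metallothionein genes, which encode small metal-binding proteins, are known to be induced by both zinc and glucocorticoids. The duodenal libraries described here show large rises of Mt1 and Mt2 in Ppara I-KO mice, and this raises the question of whether other glucocorticoid-responsive genes were also higher in the same libraries.

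The 8 genes were chosen by symbol. They comprise 6 genes that glucocorticoids induce in many tissues (Fkbp5, Tsc22d3, Sgk1, Zbtb16, Klf9 and Dusp1) and 2 dehydrogenase genes (Hsd11b1 and Hsd11b2). All 8 were among the 14795 genes of the deposited table, and all 8 passed the filter on low values (a value above 1 in at least 3 libraries) that left 13399 genes for testing. The rule used their symbols only, and the list was drawn up with the metallothionein rise in these data already known.

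RNA was sequenced from the duodenum of male mice fed a HFD (strain C57BL/6 in the labels, predominantly C57BL6/J background in the study's methods), comparing 4 Ppara I-KO mice with 3 Ppara lox/lox littermates. Both genotypes carried the floxed Ppara allele, and the I-KO mice also carried the Villin-Cre transgene, whose promoter drives Cre in the intestinal epithelium. The whole duodenum was used, so muscle, stroma and immune cells without Cre contributed RNA in both groups. According to the labels, food was withheld for 6 h, returned for 6 h and the mice were killed at midnight, while the study's methods describe a different fast unless stated otherwise. Glucocorticoid levels in mice follow the daily cycle and feeding, and no hormone measurement was analysed here. Values are CPM, read counts scaled by the authors to an adjusted library size.

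Between approximately 20745155 and 25873714 reads per library fell on the listed genes, as estimated from the spacing of the low values. Ppara itself was at 53.4, 49.3 and 63.2 in lox/lox and at 33.1, 40.6, 47.5 and 69.9 in I-KO libraries. These ranges overlapped, and a gene-level value includes exons outside the floxed part and therefore does not check the deletion. All 5 duodenal markers and all 8 epithelial markers searched were detected. The epithelial markers summed to between 17679.7 and 19057.2 in lox/lox and between 15824.4 and 19796.0 in I-KO libraries. The duodenal markers summed to 401.8, 373.2 and 223.6 in lox/lox and to between 347.6 and 446.8 in I-KO libraries. Cybrd1, Slc40a1, Pdx1 and Gata4 were each lowest in lox/lox replicate 3, and Hoxb5 was not. The cause of the low sum in that library was not tested. Pancreatic acinar genes summed to 64.3 in lox/lox replicate 2 and to 350.4 in I-KO replicate 1, against 6.9 to 10.5 in the other libraries, and the fits were repeated without them. In whole tissue, fewer cells of a type and less RNA per cell cannot be told apart.

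None of the 8 genes passed the adjusted threshold between genotypes. Limma, a linear model fitted to log2(value + 1) of all 13399 genes with Benjamini-Hochberg adjustment and a threshold of 0.05, called 4 genes in all (0.0299% of those tested), and among these were Mt1 and Mt2. The smallest adjusted p of a member was 0.822, for Zbtb16. At an unadjusted p below 0.05, 1 of 8 members passed, against 4.74% of all genes, and the groups did not overlap for 1 of 8 members, against 6.19% of all genes. That member was Zbtb16 in both counts. The estimated direction was up for 4 members and down for the other 4, and the log2 fold changes had a median of 0.02 over the 8 and of 0.14 over the 6 induced genes, beside a median of 0.00 for all genes tested.

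**Figure D1:**
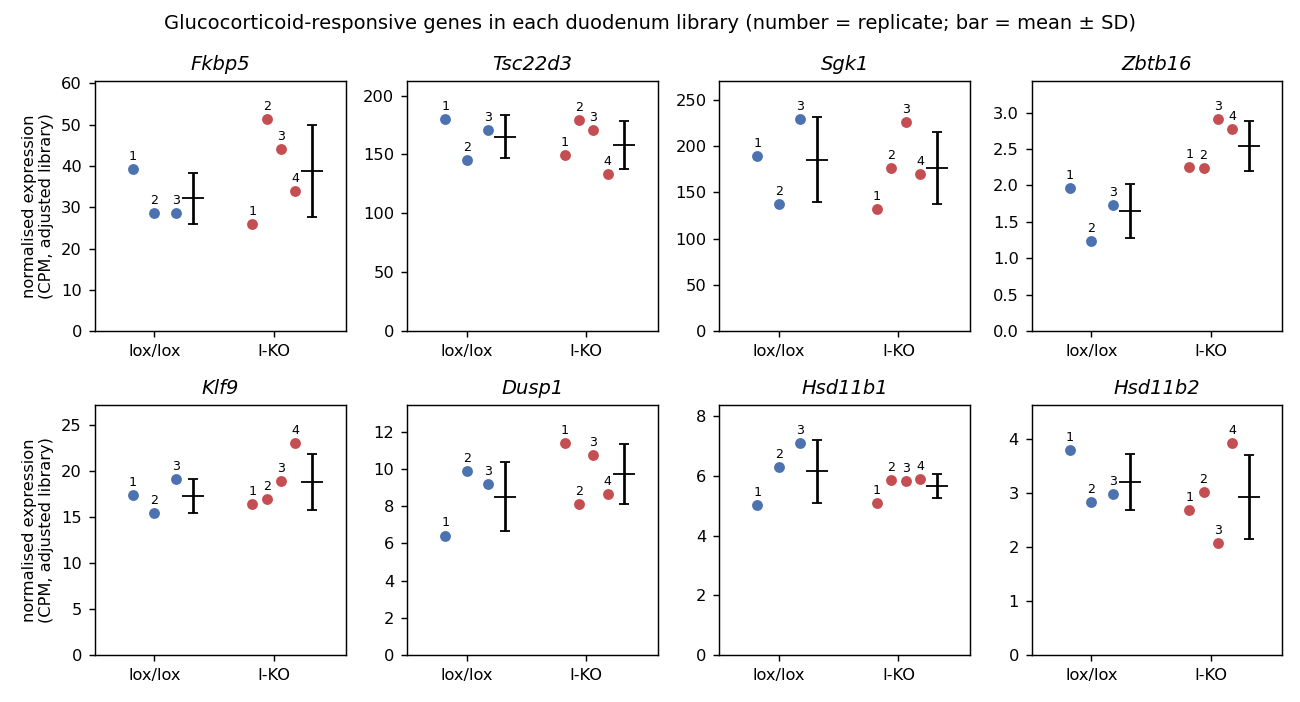
Normalised expression (CPM of an adjusted library size, linear axes from 0) of the 8 genes in the 3 Ppara lox/lox (blue) and 4 Ppara I-KO (red) libraries, with replicate numbers beside the points and the mean ± SD as a bar. The groups overlap for every gene except Zbtb16, whose I-KO libraries lie between 2.24 and 2.91 and whose lox/lox libraries lie between 1.24 and 1.97.

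Fkbp5 (chr17:28399094-28517527, minus strand, mm10) encodes a co-chaperone of HSP90 that lowers the receptor's affinity for its hormone and is itself induced by the receptor, so its transcript is widely used as a readout of receptor activity. Its values were 39.4, 28.6 and 28.7 in lox/lox and 26.1, 51.3, 44.1 and 33.9 in I-KO libraries. The highest and the lowest of the 7 libraries were both I-KO, with a 1.97-fold range inside that group. The means were 32.2 ± 6.18 (SD, n = 3) and 38.9 ± 11.1 (SD, n = 4). The log2 fold change was 0.23 ± 0.22 (SE), with a 95% confidence interval from -0.26 to 0.73 and an adjusted p of 0.954 by limma. By the exact two-sided permutation test over the 35 arrangements of the libraries, p was 0.457, where 0.0286 is the smallest p that the design allows. The interval therefore includes no change and ends at a rise of 1.66-fold. Limma draws each gene's variance toward that of all genes, so this interval is narrower than the spread of Fkbp5 alone gives. The estimate depended on single libraries, since leaving out I-KO replicate 2 gave 0.088 and leaving out I-KO replicate 1 gave 0.41. With sample quality weights it was 0.44, with an unadjusted limma p of 0.049 and an adjusted p of 0.667.

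Tsc22d3 (chrX:140539528-140600659, minus strand) encodes GILZ, a leucine zipper protein that carries part of the anti-inflammatory action of glucocorticoids. It was at 179.9, 145.2 and 170.4 in lox/lox and at 149.3, 178.8, 170.4 and 133.4 in I-KO libraries. The groups covered nearly the same range, with the lowest library in I-KO and the highest in lox/lox. Tsc22d3 had a log2 fold change of -0.07 ± 0.12 (SE), the 95% interval ran from -0.35 to 0.21, and the exact permutation p was 0.657. Its estimate changed sign under 3 of the alternatives tried, and the difference was smaller than the spread between mice.

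Sgk1 (chr10:21882184-21999903, plus strand) encodes a kinase that promotes sodium absorption by keeping transporters at the cell surface, and it responds to glucocorticoids, mineralocorticoids and cell volume. Its values were 189.8, 137.6 and 229.1 in lox/lox and 132.1, 176.8, 226.4 and 169.9 in I-KO libraries. The highest library of each group (229.1 and 226.4) and the lowest (137.6 and 132.1) were nearly at the same level. For Sgk1 the log2 fold change was -0.07 ± 0.21 (SE), with an interval from -0.53 to 0.40 and an exact permutation p of 0.686. Without lox/lox replicate 3 the estimate was 0.10, and without I-KO replicate 1 it was 0.06.

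One of the 6 Sgk1 promoter windows in the RefSeq table (GRCm38.p6, the mm10 assembly) holds a full palindromic glucocorticoid response element. It is shown because it links this gene to the receptor by sequence. Each window covers 250 bases before and 50 bases after an annotated start. The letters searched were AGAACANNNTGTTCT, the same on both strands, and the match is in capitals. The window at chr10:21993640-21993939 (plus strand, 5′ to 3′) reads:
Sgk1: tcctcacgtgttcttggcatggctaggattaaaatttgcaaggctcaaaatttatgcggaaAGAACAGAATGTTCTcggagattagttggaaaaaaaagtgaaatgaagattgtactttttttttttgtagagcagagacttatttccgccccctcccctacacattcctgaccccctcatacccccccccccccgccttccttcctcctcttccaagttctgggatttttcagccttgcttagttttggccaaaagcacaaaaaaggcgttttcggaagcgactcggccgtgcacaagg
The match began 189 bases before the start. These letters occurred in 3 of 32851 windows (0.00913%), and the shorter form ACANNNTGTTC, which lies inside them, in 0.971%. The 6-letter arm TGTTCT is far less specific, with a match on either strand in 19.0% of windows. A match is a description of the sequence and does not show that the receptor was bound there in these mice.

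Zbtb16 (chr9:48654297-48836222, minus strand) encodes PLZF, a zinc finger transcription factor that is strongly induced by glucocorticoids in several tissues and that also marks innate-like lymphocytes. It was the one member whose groups did not overlap. The values were 1.97, 1.24 and 1.73 in lox/lox and 2.25, 2.24, 2.91 and 2.77 in I-KO libraries. The means were 1.65 ± 0.37 (SD, n = 3) and 2.54 ± 0.35 (SD, n = 4), a ratio of 1.54. On the log2(value + 1) scale, which understates changes of such low values, the difference was 0.43 ± 0.12 (SE), with an interval from 0.15 to 0.70. The exact permutation test gave the smallest p possible, 0.0286. It did not pass the limma test over all genes (adjusted p = 0.822), and 106 genes ranked above it by p.

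The Zbtb16 difference rests on few reads, between 29 and 67 per library. The exact 95% Poisson interval, which covers counting error only, was 1.41 to 2.69 for lox/lox replicate 1 and 1.65 to 2.99 for I-KO replicate 1, so neighbouring libraries of opposite genotype could not be separated by their counts. Under the 16 alternatives in which it could be fitted, the log2 fold change stayed between 0.31 and 0.61. The unadjusted limma p was below 0.05 in all of them, and the adjusted p never fell below 0.425. The groups stayed without overlap, but only the other scalings could have changed this. Leaving out a library cannot create overlap, and the remaining settings leave the ranking of the values as it is. Of 10 T and innate lymphocyte markers, 4 were higher and 6 lower in I-KO libraries (median log2 fold change -0.03), with a summed level from 449.3 to 463.8 in lox/lox and from 407.3 to 545.7 in I-KO. Fibroblast and stromal markers were higher for 6 of 7 genes (median 0.19), with sums from 305.2 to 436.9 and from 411.0 to 451.8. Among these, Col3a1, a fibrillar collagen, was without overlap at 85.0, 108.8 and 128.7 in lox/lox and 145.2, 138.2, 142.3 and 138.6 in I-KO (log2 fold change 0.41 ± 0.13, SE, limma adjusted p = 0.887). Its groups overlapped after scaling to column totals, while Dcn was at 0.01 and Lum at -0.15. Of the epithelial markers, Vil1 was higher (0.14) and Fabp1 lower (-0.57), both without overlap (limma adjusted p = 0.954 and 0.822). The part of any of these cell types in the Zbtb16 difference was not tested.

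Klf9 (chr19:23141226-23168134, plus strand) encodes a Kruppel-like factor that is a direct target of the glucocorticoid receptor and also of thyroid hormone receptors. The values were 17.3, 15.4 and 19.1 in lox/lox and 16.4, 16.9, 18.9 and 23.0 in I-KO libraries. A single I-KO library, replicate 4, exceeded all lox/lox libraries. The log2 fold change was 0.11 ± 0.13 (SE), with an interval from -0.18 to 0.40 and an exact permutation p of 0.571.

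Dusp1 (chr17:26505590-26562128, minus strand) encodes a phosphatase that switches off MAP kinases, and it is induced both by glucocorticoids and by stress and growth signals. Its values were 6.42, 9.91 and 9.19 in lox/lox and 11.4, 8.09, 10.8 and 8.64 in I-KO libraries. The lowest library was lox/lox and the 2 highest were I-KO, and between them lay the other 2 I-KO libraries and, above these, the other 2 lox/lox libraries. The Dusp1 estimate was a log2 fold change of 0.18 ± 0.16 (SE), with an interval from -0.18 to 0.54 and an exact permutation p of 0.400.

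The Dusp1 promoter window is shown because its sequence carries the element of another signal. It contains the cyclic AMP response element TGACGTCA (in capitals), which reads the same on both strands and occurs in 1.79% of windows, 143 bases before the start. It holds neither of the glucocorticoid response element forms. The window at chr17:26508423-26508722 (minus strand, 5′ to 3′, RefSeq, GRCm38.p6) reads:
Dusp1: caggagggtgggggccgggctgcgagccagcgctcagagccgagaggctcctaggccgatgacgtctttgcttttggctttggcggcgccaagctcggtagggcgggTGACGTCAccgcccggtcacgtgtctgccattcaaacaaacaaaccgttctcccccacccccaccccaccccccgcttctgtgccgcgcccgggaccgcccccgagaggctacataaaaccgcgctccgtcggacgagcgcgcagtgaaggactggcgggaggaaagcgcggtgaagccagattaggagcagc
Windows were in the table for 6 of the 8 members, and the full element was found in none of them other than 1 of the 6 of Sgk1. Sequence outside these windows was not searched, so a window without a match does not show that the gene lacks a receptor site.

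**Figure D2:**
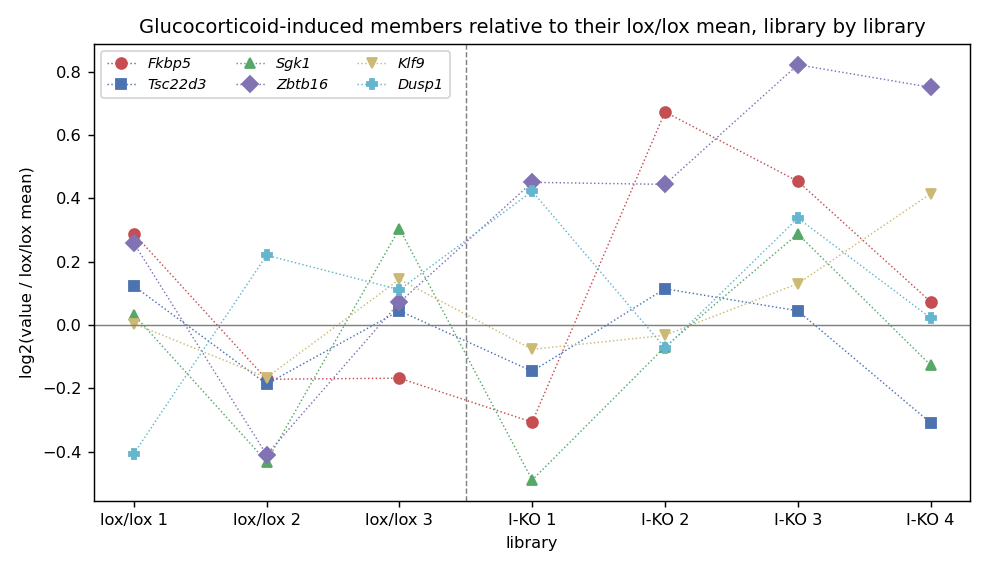
Log2 ratio of each library's value to the lox/lox mean for the 6 glucocorticoid-induced genes, in the 3 lox/lox and 4 I-KO libraries (dashed line between the groups, dotted lines join the points of a gene and imply no order). Tsc22d3 and Sgk1 fall on both sides of 0 in both groups, and only Zbtb16 is above its lox/lox mean in all 4 I-KO libraries without overlap with lox/lox.

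The dehydrogenases set how much active hormone a cell holds. Hsd11b1 (chr1:193221634-193264075, minus strand) encodes the enzyme that regenerates active corticosterone, and its values were 5.04, 6.31 and 7.11 in lox/lox and 5.08, 5.85, 5.83 and 5.91 in I-KO libraries. All 4 I-KO libraries lay inside the lox/lox range. The log2 fold change was -0.09 ± 0.11 (SE), with an interval from -0.35 to 0.16 and an exact permutation p of 0.486. Hsd11b2 (chr8:105518755-105523988, plus strand) encodes the enzyme that inactivates corticosterone and so protects the mineralocorticoid receptor. It was at 3.80, 2.83 and 2.99 in lox/lox and at 2.68, 3.02, 2.07 and 3.93 in I-KO libraries, where the I-KO libraries extended beyond lox/lox at both ends. The log2 fold change was -0.11 ± 0.16 (SE), with an interval from -0.47 to 0.24 and an exact permutation p of 0.514. H6pd, which supplies the reducing cofactor to the Hsd11b1 enzyme, was lower without overlap, at 37.9, 38.8 and 39.7 in lox/lox and 36.2, 36.1, 34.2 and 32.9 in I-KO libraries. Its log2 fold change was small, -0.15 ± 0.08 (SE), with an interval from -0.32 to 0.02 that includes no change (limma adjusted p = 0.954).

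Levels of different genes can be compared only after division by transcript length. Per 1000 bases of merged exons (GENCODE M21), Tsc22d3 and Sgk1 had the highest lox/lox means, 38.0 and 37.8, and their ranges over libraries overlapped. Klf9 and Fkbp5 followed at 3.59 and 3.40 per 1000 bases, again with overlapping ranges. Dusp1 was at 2.57, below every Fkbp5 library. Hsd11b2 (1.74) and Hsd11b1 (1.45) overlapped each other, and Hsd11b2 also overlapped Dusp1, whose lowest library was at 1.94. Zbtb16 was lowest at 0.312 per 1000 bases, below every other member in every lox/lox library.

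Several of the 8 genes varied more between mice of one genotype than most genes did. The within-group SD of log2(value + 1) was 0.36 for Fkbp5 and 0.34 for Sgk1, at the 96.5th and 95.4th percentile of the 13399 genes, whose median was 0.14. Dusp1 (0.25) and Hsd11b2 (0.25) were at the 86.9th and 85.7th percentile, while Hsd11b1 (0.15) was at the 54.5th percentile. Counting error adds to the spread of Hsd11b2, which had between 39 and 95 reads per library, but is small for Fkbp5 (544 to 1306 reads) and Sgk1 (2760 to 5823 reads). This spread sets the width of the intervals above only in part, since limma moves each gene's variance toward that of all genes. For Fkbp5 and Sgk1 the intervals are therefore narrower than the genes' own spread alone would give.

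The induced genes did not rise and fall as one group across the 7 libraries. Over the 15 pairs of the 6 genes, Pearson's r of log2(value + 1) ran from -0.45 to 0.64 with a median of 0.11, and 9 pairs were positive. Fkbp5, Tsc22d3 and Sgk1 were positively related to each other, with r of 0.59 (Fkbp5 and Tsc22d3), 0.46 (Fkbp5 and Sgk1) and 0.61 (Tsc22d3 and Sgk1), and Dusp1 was negatively related to all 3 (-0.45, -0.42 and -0.26). These values describe 7 libraries that share their scaling and are given without a test. The 5 genes most like Fkbp5 were Ninj1 (r = 0.99), Tmc7 (0.97), Tob2 (0.95), Dock5 (0.95) and Cdkl2 (0.95), and those most like Tsc22d3 were Chd3 (0.99), 4930581F22Rik (0.98), Ccdc112 (0.98), Ttf1 (0.98) and Eif4enif1 (0.97). None of the 8 members was among them.

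The metallothionein genes changed on another scale. Mt1 was at 41.7, 39.4 and 21.7 in lox/lox and at 322.2, 251.1, 269.2 and 219.3 in I-KO libraries, a log2 fold change of 2.96 ± 0.22 (SE). Its interval ran from 2.46 to 3.46, which is 5.49 to 10.98-fold (limma adjusted p = 0.00147). Mt2 was at 6.22, 5.83 and 2.12 and at 94.8, 79.4, 83.5 and 62.6, with a log2 fold change of 3.90 ± 0.28 (SE). On the log2(value + 1) scale, the highest upper bound of any of the 8 members was 0.73 (Fkbp5), below the lower bound of either metallothionein gene. That scale understates Zbtb16. With a pseudocount of 0.1, the log2 fold change was 0.61 for Zbtb16 and 0.24 for Fkbp5, beside 2.99 for Mt1 and 4.18 for Mt2. The rise of Mt1 and Mt2 was therefore accompanied by no rise of a similar size in any of the 8 glucocorticoid-responsive genes, while rises of up to 1.66-fold in Fkbp5 lay inside its interval.

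**Figure D3:**
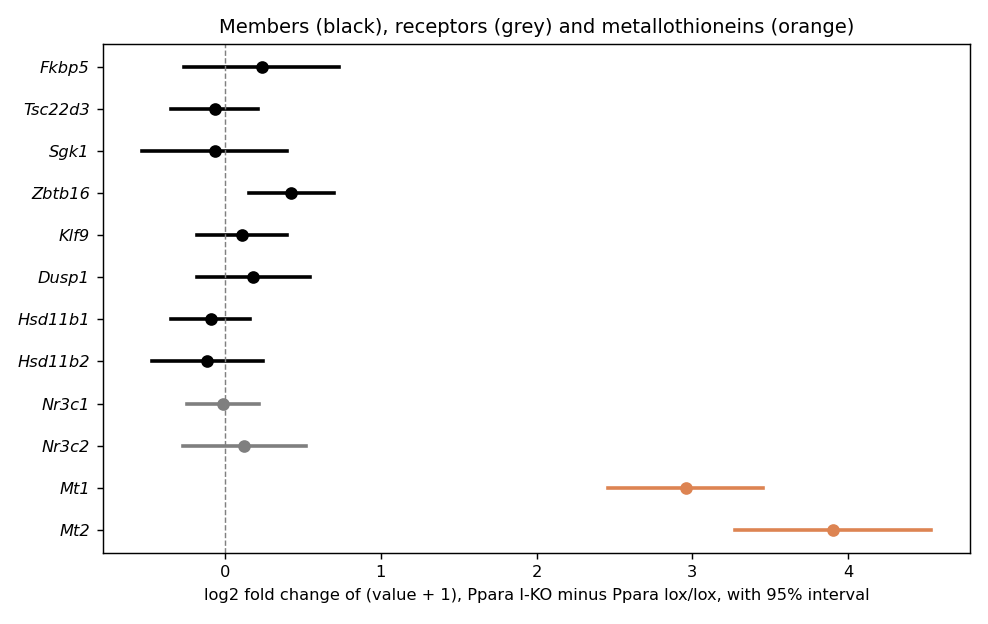
Log2 fold change of (value + 1) with its 95% confidence interval from limma for the 8 members (black), the receptors Nr3c1 and Nr3c2 (grey) and Mt1 and Mt2 (orange), Ppara I-KO minus Ppara lox/lox, 3 and 4 libraries. The members' intervals end at or below 0.73 and those of Mt1 and Mt2 begin at 2.46 and 3.28.

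The Mt1 promoter window holds both kinds of letters, which is why it is shown. The glucocorticoid element's shorter form ACANNNTGTTC (capitals) begins 92 bases before the start, and the metal response element core occurs as TGCACNC at 23 bases before and 3 bases after the start and as TGCGCNC 21 bases after it. On either strand, TGCACNC occurs in 12.6% and TGCGCNC in 15.4% of windows. The Mt2 window holds both metal forms and neither form of the glucocorticoid element. The Mt1 window at chr8:94178839-94179138 (plus strand, 5′ to 3′, RefSeq, GRCm38.p6) reads:
Mt1: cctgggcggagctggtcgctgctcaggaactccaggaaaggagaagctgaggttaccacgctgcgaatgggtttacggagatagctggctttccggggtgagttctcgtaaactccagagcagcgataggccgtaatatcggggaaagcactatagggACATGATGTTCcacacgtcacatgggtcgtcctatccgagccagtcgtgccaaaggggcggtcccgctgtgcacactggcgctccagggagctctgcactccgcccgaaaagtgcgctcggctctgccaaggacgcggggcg

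Upstream of these genes, the receptor transcript differed between the groups by less than its spread between mice. Nr3c1, the glucocorticoid receptor, was at 128.1, 120.4 and 135.2 in lox/lox and at 108.7, 128.5, 131.2 and 140.1 in I-KO libraries, a log2 fold change of -0.01 ± 0.10 (SE, interval from -0.25 to 0.22). Nr3c2, the mineralocorticoid receptor, was at 22.6, 21.2 and 22.3 in lox/lox and spread more widely, from 17.7 to 30.1, in I-KO libraries (log2 fold change 0.12 ± 0.17, SE). Of the 12 receptor, chaperone and coregulator genes, 11 had a lower mean in I-KO (median log2 difference -0.18), and 2 passed an unadjusted p of 0.05 (1 to 3 with 1 library left out). Hsp90aa1, the inducible HSP90, was at 429.9, 433.4 and 371.0 in lox/lox and at 329.3, 368.9, 218.9 and 279.3 in I-KO libraries, without overlap (log2 fold change -0.48 ± 0.17, SE, limma adjusted p = 0.954). Ptges3, the p23 co-chaperone that stabilises the receptor with its hormone, was at 97.3, 94.9 and 90.9 and at 61.0, 82.1, 66.2 and 78.5, also without overlap (-0.40 ± 0.11, SE, limma adjusted p = 0.830). Neither difference passed the adjusted threshold, and the chaperones also serve many other client proteins. The Hsp90aa1 groups were separated only by 371.0 against 368.9, and they overlapped when each library was scaled by the median of its gene ratios.

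A wider set of 24 genes known to be induced by glucocorticoids gave the same count in both directions. Of the 22 tested, 11 were higher and 11 lower in I-KO (median log2 fold change 0.01), none passed the adjusted threshold and 3 passed an unadjusted p of 0.05. This last count was 6 when lox/lox replicate 2 was left out, 5 when I-KO replicate 1 was and 7 when both were. It fell to 2 when replicate 3 of either genotype was left out. The share of all genes passing (4.74%) is given for the full set of libraries only, so these shifts were not compared with it. Cdkn1c, a cell cycle inhibitor, was at 3.21, 3.09 and 2.95 in lox/lox and 4.65, 4.56, 3.92 and 4.59 in I-KO libraries, without overlap (log2 fold change 0.41 ± 0.08, SE, limma adjusted p = 0.467). Pdk4, which restrains glucose oxidation, and Angptl4, an inhibitor of lipoprotein lipase, had lower means in I-KO, with log2 fold changes of -1.02 ± 0.36 and -0.79 ± 0.32 (SE). Both are also well known PPARα targets, so these 2 genes belong to both pathways. Pdk4 was at 29.8, 21.0 and 59.3 in lox/lox and 13.03, 11.6, 15.5 and 27.9 in I-KO libraries, and Angptl4 at 33.1, 16.2 and 41.7 and at 25.6, 12.2, 14.1 and 14.6, both with overlap and a limma adjusted p of 0.954. Without lox/lox replicate 3 the log2 fold changes of Pdk4 and Angptl4 were -0.61 and -0.51, and without lox/lox replicate 2 they were -1.34 and -1.17, both without overlap. Without both libraries that held the most acinar RNA, they were -1.25 and -1.39, also without overlap (limma adjusted p = 0.99974 and 0.067). Groups of fewer libraries separate more easily. The share of all genes without overlap (6.19%) is given for the full set of libraries only, so these separations were not compared with it. Per1, a clock gene with a receptor-bound promoter, was at 17.4, 16.3 and 21.7 and at 15.3, 25.2, 20.8 and 20.9 (0.13 ± 0.16, SE).

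Genes that glucocorticoids repress in inflammation also had no member past the adjusted threshold. Of 9 tested, 3 were higher and 6 lower in I-KO (median log2 fold change -0.21). Nos2, the inducible nitric oxide synthase, was at 37.7, 167.0 and 68.4 in lox/lox and at 22.7, 40.3, 26.2 and 34.1 in I-KO libraries (log2 fold change -1.30 ± 0.42, SE, limma adjusted p = 0.929). Its groups overlapped, the value of 167.0 belonged to lox/lox replicate 2, and without that library the log2 fold change was -0.74. Without lox/lox replicate 1 it was -1.80 and without I-KO replicate 2 it was -1.44, in both cases without overlap (limma adjusted p = 0.588 and 0.841). Here too, fewer libraries made separation easier. Of 12 listed genes of local steroid synthesis and handling, Cyp11a1, Cyp11b1 and Akr1d1 were not among the genes with deposited values. The 9 tested mix synthesis with handling genes, so they do not describe synthesis alone. Of these, 8 were higher (median 0.17), with none past an unadjusted p of 0.05. That count rested on single libraries, since 2 genes passed when lox/lox replicate 2 was left out and 3 when I-KO replicate 1 was, while 4 passed when both were. Leaving out I-KO replicate 2 also gave 2 genes. For these fits, too, no share of all genes is given.

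Most partners and relatives of the members had a slightly higher mean in I-KO libraries, and none passed the adjusted threshold. Among 12 Sgk1 partners and sodium transport genes, 8 were higher (median log2 fold change 0.09), and Slc9a3r2, a scaffold of the sodium/proton exchanger, was alone past an unadjusted p of 0.05, at 11.8, 14.9 and 16.8 in lox/lox and 18.4, 18.5, 19.9 and 15.7 in I-KO libraries (0.31 ± 0.13, SE, limma adjusted p = 0.954). Of 9 relatives of Dusp1, 8 were higher with a median of 0.06 and none passed. Of 10 other Kruppel-like factors, 7 were higher and 3 lower (median 0.09). Klf11 was lower without overlap, at 5.97, 5.23 and 6.60 in lox/lox and 4.84, 4.87, 3.87 and 4.34 in I-KO libraries (-0.34 ± 0.10, SE, limma adjusted p = 0.833). Klf13 was higher without overlap, at 62.6, 59.3 and 56.4 and at 65.5, 65.6, 73.1 and 67.3 (0.19 ± 0.08, SE, limma adjusted p = 0.954). Over all 82 pathway genes tested outside the members and metallothioneins, 0 passed the adjusted threshold with limma, 9 (10.98%) passed an unadjusted p of 0.05 and 6 (7.32%) were without overlap, beside 4.74% and 6.19% of all genes.

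**Figure D4:**
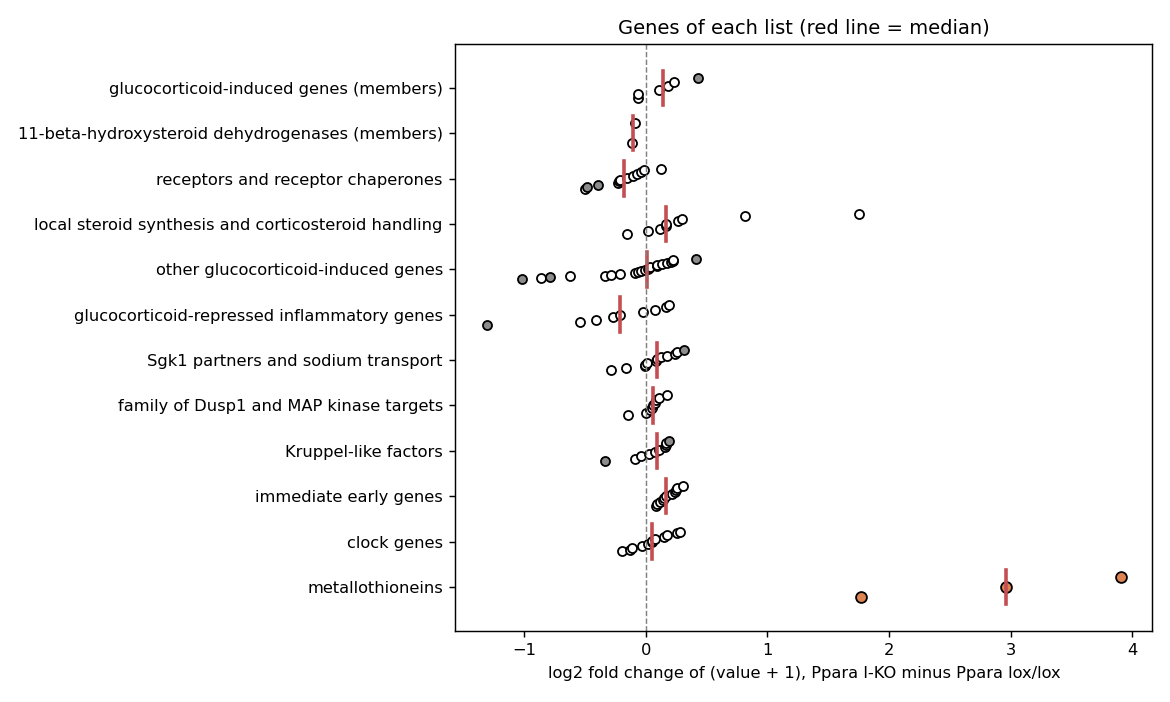
Log2 fold change of (value + 1), Ppara I-KO minus Ppara lox/lox, for each tested gene of 12 lists, with the median of each list as a red line. Open points did not pass an unadjusted p of 0.05, grey points passed it, and the orange points, all metallothioneins, passed the adjusted threshold.

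Handling and time of day also act on several of these genes. All 11 immediate early genes had a higher mean in I-KO libraries, with log2 fold changes from 0.08 to 0.30 and a median of 0.16, and none passed an unadjusted p of 0.05, although 1 passed when I-KO replicate 2 was left out and 2 when I-KO replicate 4 was. Their summed level was 678.6 to 764.7 in lox/lox and 728.2 to 924.0 in I-KO libraries, with overlap. Dusp1, which is induced by the same signals, had a log2 fold change of 0.18. Of the 12 clock genes, 8 were higher and 4 lower (median 0.05), and none passed, with at most 1 passing when a library was left out. Differences in handling or sampling time between the groups were not tested.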

How the data were processed

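RNA-seq of 7 duodena (3 Ppara lox/lox, 4 Ppara I-KO, genotype and replicate number from the labels) used 100 base single reads. The authors deposited 1 table of signal values, that is read counts scaled to an adjusted library size (CPM) with 2 decimals, and 1 row without a gene name was dropped. The submitters' processing notes name TopHat2 2.0.13, HTSeq 0.6.1, Picard 1.80, edgeR and mm10. Reads per library were estimated from the spacing of low values. Tests on counts were not run. The condition for them was whole reads, to within 0.1 of a read, for at least 95% of low values in every library. This condition was not met. In I-KO replicate 2, 1 read was worth 0.0393, so rounding to 2 decimals can by itself exceed that limit. Within the rounding, 100% of low values in each library were whole reads.

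Genes with a value above 1 in 3 or more libraries were tested on log2(value + 1) by limma 3.58.1 (R 4.3.3) with genotype alone in the model, two-sided p-values and Benjamini-Hochberg adjustment over all genes at 0.05. The fit was first tested on simulated data. Exact permutation tests and figures used Python 3.11.15 (scipy 1.17.1, matplotlib 3.10.9). Alternatives were a pseudocount of 0.5 or 0.1, no filter, a filter at 5, other scalings, an intensity trend, quality weights, a replicate block and each library left out. Replicate pairs differed beyond sampling noise (lowest chi-square 13.5 for each degree of freedom) and were kept as separate mice.

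The members and gene lists were chosen with earlier results of these data known. Named were the members, Nr3c1, Nr3c2, Per1, Mt1, Mt2, Ppara, list genes past an unadjusted p of 0.05 or without overlap between the groups (of marker lists, Col3a1, Vil1 and Fabp1), and the 5 genes most like Fkbp5 or Tsc22d3. Nr3c2, Per1, Dcn and Lum were added after their values were seen. Coordinates and exon lengths come from GENCODE M21 and promoter windows from RefSeq.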

Additional observations from a re-analysis of the deposited data

Results flagged for a closer look

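A search of the 27 named genes for an I-KO library far from the other 3 of its group gave 2 genes, where chance at 1 in 20 would give 1.35. For Hsd11b1, I-KO replicate 1 (5.08) lay below the other 3 (5.83 to 5.91), and its gap took 0.904 of the group's range. For Cdkn1c, I-KO replicate 3 (3.92) lay below the other 3 (4.56 to 4.65), with a gap of 0.877 of the range. The value of 5.08 lay inside the lox/lox range of Hsd11b1, and 3.92 lay above the lox/lox range of Cdkn1c.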

How the results depend on the processing

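Under 16 alternatives and 1 more chosen after seeing the data (both libraries highest in acinar genes left out), 0 members passed the adjusted threshold, and 127 of 134 member estimates kept their direction. The filter changes and the intensity trend are counted among these, although they leave each estimate as it is and could not reverse it. The 4 genes called in all became 12 with sample quality weights and ranged from 3 to 5 with 1 library left out. With weights the estimates of Tsc22d3 (0.061), Sgk1 (0.12) and Nr3c1 (0.035) turned positive, and without the acinar-rich libraries that of Nr3c1 (0.017) did. With 1 library left out, Fkbp5 ranged from 0.088 to 0.41, Tsc22d3 from -0.16 to 0.010, Sgk1 from -0.27 to 0.10, Zbtb16 from 0.31 to 0.51, Klf9 from 0.012 to 0.18, Dusp1 from 0.012 to 0.29, Hsd11b1 from -0.21 to 0.0030, Hsd11b2 from -0.23 to -0.0028 and Nr3c1 from -0.062 to 0.060. A count of 1 member without overlap became 0 with the filter at 5, which Zbtb16 and Hsd11b2 did not pass, and ranged from 1 to 2 with 1 library left out, the second being Hsd11b1 without lox/lox replicate 1. Groups of fewer libraries separate more easily. The 9 pathway genes past an unadjusted p of 0.05 became 14 without the acinar-rich libraries and ranged from 6 to 15 with 1 library left out, highest without I-KO replicate 1. The share of all genes passing is given for the main fit only, so such counts from other fits were not compared with it. The cause of these shifts was not tested.

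The deviations of same-numbered libraries from their group means had r of -0.01, 0.18 and -0.01 across genotypes. Libraries with different numbers were not compared, so these values cannot show whether the numbers pair the mice. With the replicate block, 3 genes were called in all, no member was, Tsc22d3 turned to 0.010, and 6 rather than 3 of the other glucocorticoid-induced genes passed an unadjusted p of 0.05. Except for Zbtb16, each member's log2 fold change was smaller than its SD within groups, and the low values of Zbtb16 and Hsd11b2 add counting error.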

Other observations

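A pair of steroid-synthesis genes stood apart from the others in a way that did not follow genotype, and both were singled out after their values were seen. Hsd3b3, a 3-beta-hydroxysteroid dehydrogenase, was at 0.20, 11.8 and 0.35 in lox/lox and at 0.53, 12.9, 15.6 and 19.6 in I-KO libraries. Hsd3b2 was at 0.00, 1.07 and 0.00 in lox/lox and at 0.00, 1.45, 1.64 and 2.93 in I-KO libraries. Both genes were near or at 0 in the same 3 libraries (lox/lox replicates 1 and 3 and I-KO replicate 1). Members of this family are similar in sequence, so the division of reads among them is uncertain.

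Tnf, Nfkbia and Ccl20, inflammatory genes or targets of NF-kappaB, were highest in lox/lox replicate 2, the library in which Nos2 was also highest. Tnf was at 7.81 there against 1.78 to 2.39 in the other libraries, Nfkbia at 230.1 against 78.5 to 108.0, and Ccl20 at 15.7 against 4.45 to 6.99. These genes were also named after their values were seen, and no test was made.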
